A study of Mus musculus with 68 samples.

Results

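The 10 genes described here mark astrocytes, the glial cells that take up transmitter, move water and potassium and join each other through gap junctions. They are Aqp4, Gjb6, Gja1, Slc1a2, Slc1a3, Gfap, Aldh1l1, Sox9, F3 and Gpc5. They were chosen by name as an astrocyte set, found by the symbol of their Ensembl IDs, and all 10 were present among the 18088 genes of the deposited table and passed the filter on low values. The libraries came from prefrontal cortex of C57BL/6J mice on postnatal day 25, and mice labelled HT were heterozygous for Adnp, which encodes a chromatin-binding protein and is mutated in people with an autism syndrome, while WT mice were wild type. From day 3 to day 24, over 3 weeks, pups received fluoxetine, lithium or vehicle through the milk of their mother. Fluoxetine blocks the reuptake of serotonin, and lithium is used to stabilize mood. The labels name neither the mutant allele nor the dose reaching a pup.

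The 68 libraries were read as 8 combinations of genotype and arm, both sexes together. Fluoxetine had 10 HT and 10 WT libraries, and lithium had 9 HT and 8 WT libraries. Vehicle libraries were kept in 2 arms by the replicate number in their titles. Vehicle 1 to 5 had 10 HT and 10 WT libraries and vehicle 6 to 8 had 6 HT and 5 WT libraries. The labels do not say what set those numbers apart, nor that replicates are separate animals, so p-values measure the spread between these libraries. Each effect averages the female contrast and the male contrast of one limma fit over 16 groups (genotype, arm and sex), on the log2(value + 1) scale. A gene passed at a Benjamini-Hochberg adjusted p under 0.05 over all 17922 genes tested, and adjusted p-values below are limma's.

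In the brain Aqp4 forms the water channel of astrocyte endfeet on vessels. Gjb6 and Gja1 encode connexin 30 and connexin 43, the gap junction proteins that couple astrocytes into a network. Slc1a2 and Slc1a3 encode the transporters GLT-1 and GLAST, which clear glutamate released at synapses. Gfap is the intermediate filament protein that accumulates in reactive astrocytes, Aldh1l1 an enzyme of folate metabolism, and Sox9 a transcription factor of the astrocyte lineage. F3 encodes tissue factor, the starter of the clotting cascade, and Gpc5 a glypican, a proteoglycan anchored to the cell surface.

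Libraries held 22356015 to 37534435 recovered reads (median 30743591). Adnp, the targeted gene, ran between 1492 and 2845 normalized counts in HT libraries (median 2190, n = 35), against 1077 to 2290 in WT libraries (median 1815, n = 33), so its median stood higher in libraries labelled HT. Gene-level values do not show the allele, and HT and WT below are the labels of the libraries. Levels of 361 pseudogenes divided the libraries into 3 sets that the labels do not name (average linkage, with the number of sets chosen). One set of 28 held all fluoxetine libraries, all HT vehicle 1 to 5 females and HT vehicle males 3, 4 and 5. Another set of 28 held all lithium and all vehicle 6 to 8 libraries. The third set of 12 held all 10 WT vehicle 1 to 5 libraries and HT vehicle males 1 and 2. HT minus WT under fluoxetine, under lithium and in vehicle 6 to 8, and lithium minus vehicle 6 to 8, therefore lay inside 1 set. In HT minus WT of vehicle 1 to 5 the set and the genotype coincided except for HT vehicle males 1 and 2, so there the 2 cannot be told apart outside those 2 males. Vehicle 1 to 5 minus vehicle 6 to 8, lithium minus vehicle 1 to 5, fluoxetine minus vehicle 6 to 8, and fluoxetine minus vehicle 1 to 5 in WT each ran across sets, with no set that holds both sides. Dcx, a marker of migrating neuroblasts, ran up to 8896 in HT vehicle 1 to 5 (median 2994) and up to 11743 in WT vehicle 1 to 5 (median 5261), against medians of 2462 in HT and 1494 in WT vehicle 6 to 8. The choroid plexus marker Ttr was at 0 in 7 libraries and reached 5536 at most. Excitatory neuron markers were high throughout: Slc17a7 was never below 33346 and Tbr1 never below 1583.

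Per kilobase of annotated exon, Slc1a2 stood highest of the 10, at a median of 6585 normalized counts per kb over the 68 libraries, above 99.4% of all genes. Slc1a3 followed at 2210, Gfap at 936, Aqp4 at 570, Gja1 at 513, Gjb6 at 451, Aldh1l1 at 401, F3 at 310, Gpc5 at 223 and Sox9 at 156. Slc1a2 and Slc1a3 each stood clear of the next gene in every library, while the ranges of all other neighbours in this order overlapped. Within the 16 groups Gfap was the most variable, with an SD of 0.28 on the log2 scale. Over all libraries Gfap ran between 2246 normalized counts in a WT vehicle male and 7193 in a WT fluoxetine female, a 3.20-fold range. Gpc5 was the steadiest, with a within-group SD of 0.076 and a 1.44-fold range of 859 to 1240. The sexes did not differ detectably at any of the 10, with 0 of 10 passing for female minus male, where 0.128% of all genes passed. Gfap had the largest sex difference, 0.15 on the log2 scale (unadjusted p = 0.038, adjusted p = 0.50), and edgeR on the recovered reads also passed none of the 10.

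**Figure D1:**
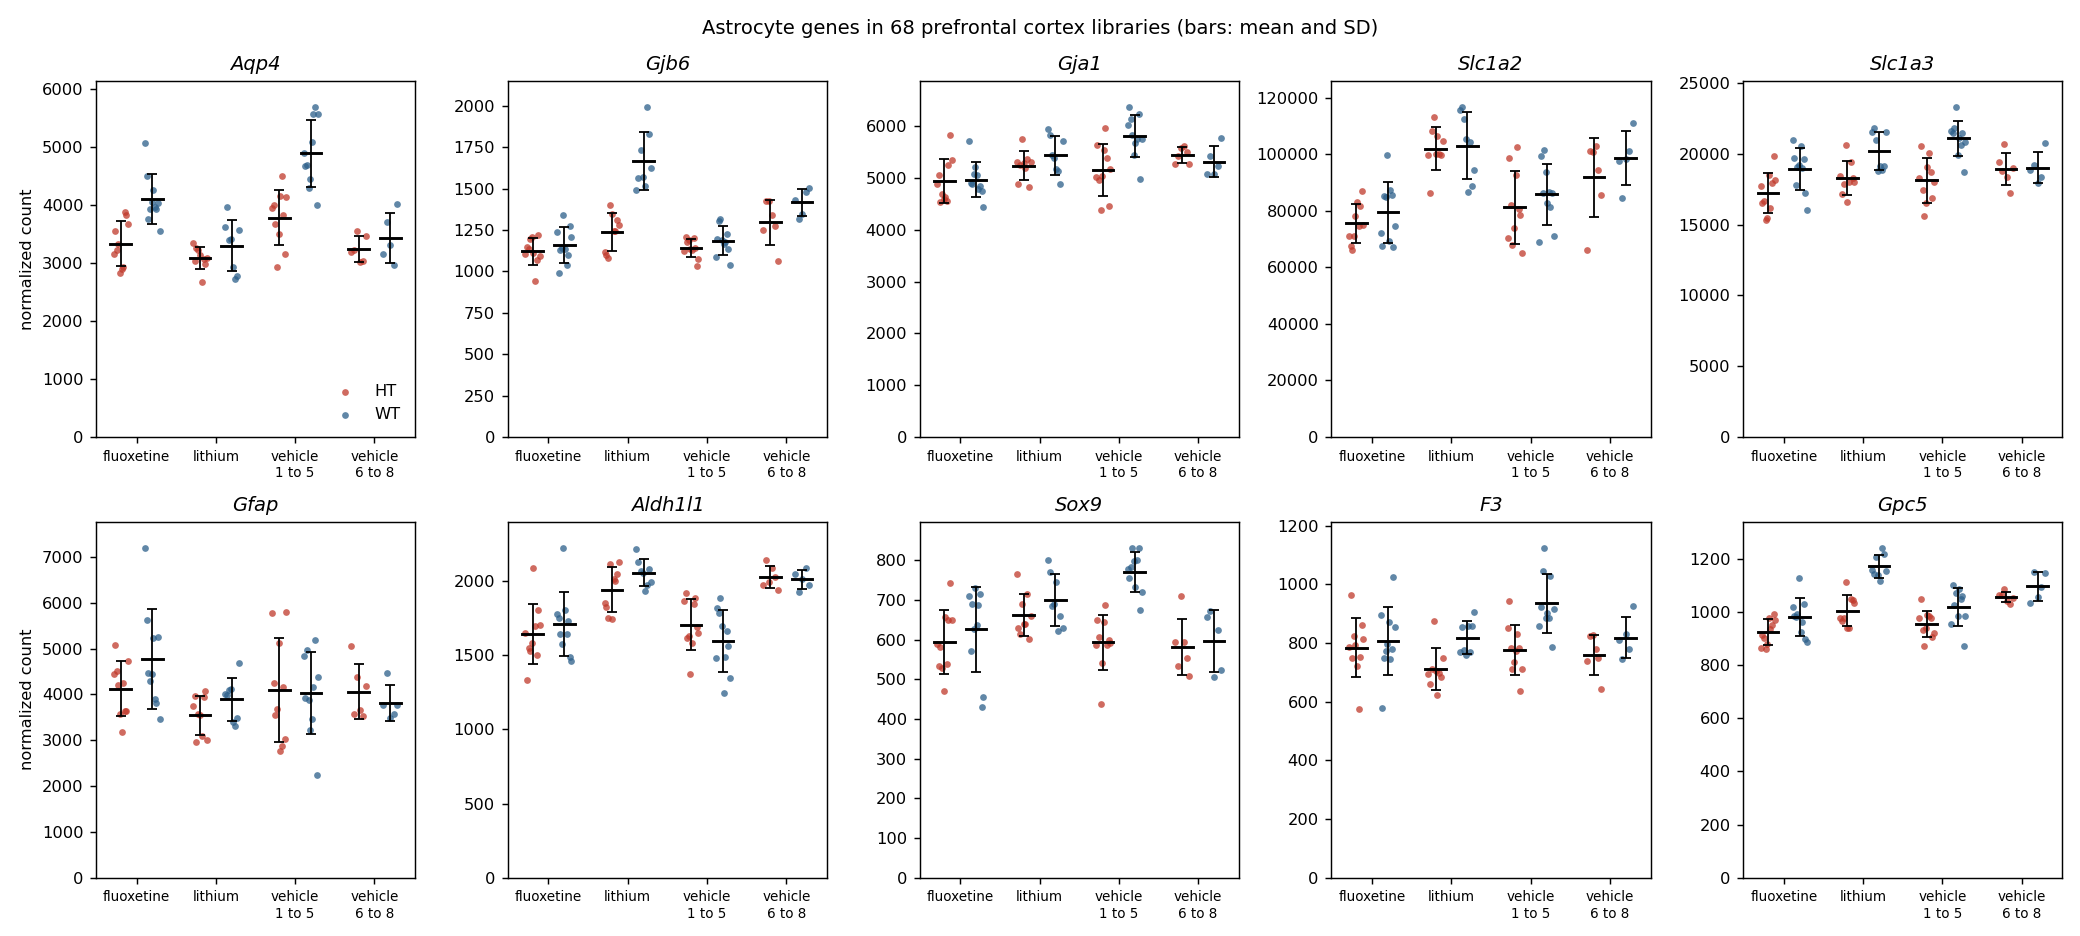
Normalized count of each of the 10 astrocyte genes (vertical axes, starting at 0) in every library, by arm, with HT in red left of WT in blue; black bars are the mean and SD. WT libraries of vehicle 1 to 5 stand high for Aqp4 and Sox9, and WT lithium libraries stand high for Gjb6 and Gpc5.

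Genotype was first compared inside the vehicle 1 to 5 arm, where 6 of the 10 genes were lower in HT and none was higher, among 25.9% of all genes that passed there in either direction. Aqp4 and Sox9 fell most. Gja1, Slc1a3, F3 and Gpc5 fell by less, and Gjb6, Slc1a2, Gfap and Aldh1l1 did not pass. The median of the 10 log2 differences was -0.13, against -0.01 over all genes tested. Inside the 1 library set that holds both genotypes, HT vehicle males 1 and 2 against the 5 WT males, 0 of the 10 genes passed, beside 1.03% of all genes. By sex, 4 passed in females, all lower in HT (Aqp4, Gja1, Sox9 and Slc1a3), beside 11.4% of all genes. In males 3 passed beside 12.8% of all genes, Aqp4 and F3 lower in HT and Aldh1l1 higher (0.25, adjusted p = 0.033). Whether the sexes differed was not tested. In bulk tissue, fewer astrocytes and less RNA per astrocyte cannot be told apart.

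For the water channel gene Aqp4 (chromosome 18, 15389496 to 15410982, minus strand, GRCm38, as are all coordinates here), HT vehicle 1 to 5 libraries ran between 2923 and 4493 normalized counts with a median of 3881, against 3995 to 5676 with a median of 4781 in WT vehicle 1 to 5 libraries. The ranges overlapped, but 6 of 10 HT libraries lay below every WT library. The log2 difference was -0.37 (SE 0.07), a 0.772-fold level (adjusted p = 3.6e-05). Without HT vehicle males 1 and 2, which are among the highest HT libraries, it was -0.42. Those 2 males had 4153 and 4493, against 5086, 5571, 5676, 3995 and 5568 in WT vehicle males 1 to 5, so both lay below 4 of the 5 WT males of their own library set. That within-set difference was -0.25 (adjusted p = 0.33).

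Sox9 (chromosome 11, 112782224 to 112787760, plus strand) had 437 to 688 normalized counts in HT vehicle 1 to 5 libraries (median 596), against 675 to 831 in WT vehicle 1 to 5 libraries (median 781). Of the 10 HT libraries 9 lay below every WT library, and the exception was HT vehicle male 2. This gave a log2 difference of -0.38 (SE 0.07, adjusted p = 5.1e-05), and of -0.17 between HT males 1 and 2 and the 5 WT males (adjusted p = 0.56).

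The glutamate transporter gene Slc1a3 (chromosome 15, 8634124 to 8710764, minus strand) had a median of 18153 normalized counts in HT vehicle 1 to 5 libraries, in a range of 15605 to 20584. WT vehicle 1 to 5 libraries had a median of 21307 in a range of 18691 to 23288. Of the HT libraries 6 of 10 lay below every WT library, at a log2 difference of -0.22 (SE 0.05, adjusted p = 1.9e-04), and within the set it was -0.07. Its relative Slc1a2 (chromosome 2, 102658659 to 102790784, plus strand) had a median of 79679 in HT and 86303 in WT, with broad overlap and a log2 difference of -0.08 (adjusted p = 0.45).

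Among the connexins, Gja1 (chromosome 10, 56377330 to 56402513, plus strand) had a median of 5098 normalized counts in HT vehicle 1 to 5 libraries and 5795 in WT vehicle 1 to 5 libraries, a log2 difference of -0.18 (SE 0.05, adjusted p = 2.2e-03). Pooling all vehicle libraries took that call away (adjusted p = 0.058), and within the set the Gja1 difference was 0.021. Gjb6 (chromosome 14, 57123303 to 57133611, minus strand) had medians of 1139 in HT and 1185 in WT and did not pass (-0.05, adjusted p = 0.46). F3 (chromosome 3, 121723537 to 121735048, plus strand) had medians of 777 in HT and 908 in WT and fell by 0.27 (SE 0.07, adjusted p = 2.4e-03), with -0.17 within the set. Gpc5 (chromosome 14, 115092215 to 116525179, plus strand) was lower by the smallest step, a log2 difference of -0.09 (SE 0.04, adjusted p = 0.048), and that call was kept in 6 of the 20 fits that left out 1 library. Gfap (chromosome 11, 102887336 to 102900912, minus strand) and Aldh1l1 (chromosome 6, 90486427 to 90600203, plus strand) differed by 0.02 and 0.10, neither past the threshold.

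Some markers of other cells passed in this comparison too, where 25.9% of all genes passed. Of 9 mural markers 4 were lower in HT, of 10 excitatory neuron markers 3 were (median log2 difference -0.11), and of 10 myelinating oligodendrocyte markers 2 were higher (median 0.28). Inhibitory neuron, oligodendrocyte precursor, choroid plexus and neuroblast markers had 1 lower each, meningeal fibroblast markers 2 lower and microglial markers 1 higher. The mural count lay above the share of all genes, and the other counts lay near or below it. The neuroblast median was -0.56. The summed neuroblast level ran between 7188 and 38159 in HT vehicle 1 to 5 libraries (median 10878), against 7692 to 42450 in WT vehicle 1 to 5 libraries (median 16904), with nearly the same range in both. The part of these markers in the result was not tested.

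In vehicle 6 to 8, where both genotypes lie in 1 library set, 0 of the 10 genes passed for HT minus WT, beside 0.491% of all genes. At an unadjusted p under 0.05 there was 1 of 10, beside 987 of the 17922 genes. It was Gjb6, at -0.15 (adjusted p = 0.82). By edgeR on the recovered reads none of the 10 passed, beside 93 of all genes. Aqp4 ran between 3017 and 3548 in HT vehicle 6 to 8 libraries, against 2968 to 4017 in WT vehicle 6 to 8 libraries, so the HT range lay inside the WT range (-0.08). Sox9 ran between 509 and 710 in HT and between 507 and 672 in WT (-0.02). The difference between the 2 vehicle arms in the HT minus WT effect was itself tested, and 0 of the 10 passed, beside 2.04% of all genes. Sox9 came nearest at -0.36 (SE 0.12, adjusted p = 0.097), followed by Gja1 at -0.20, Slc1a3 at -0.21 and Aqp4 at -0.30. By edgeR none of the 10 passed, beside 376 of all genes. With library weights 4 of the 10 passed, Sox9 (-0.43), Aqp4 (-0.38), Gja1 (-0.26) and Slc1a3 (-0.24), with adjusted p between 4.9e-03 and 0.013. Without HT vehicle males 1 and 2, Gja1 (-0.25, adjusted p = 0.033) and Sox9 (-0.39, adjusted p = 0.041) passed. The shares of all genes passing with library weights or without those males were not counted, so these counts have no background beside them.

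Under fluoxetine 1 of the 10 genes, Aqp4, was lower in HT, where 2.66% of all genes passed. HT fluoxetine libraries ran between 2828 and 3879 normalized counts (median 3274) and WT fluoxetine libraries between 3546 and 5066 (median 3993), and 7 of 10 HT libraries lay below every WT library. The log2 difference was -0.30 (SE 0.07), a 0.811-fold level (adjusted p = 3.8e-03). It passed in all 9 alternatives that could be fitted and in all 20 fits that left out 1 library. All 10 genes had differences below 0 in this arm, with a median of -0.07 against 0.00 over all genes, and the other 9 did not pass. Slc1a3 (-0.14, adjusted p = 0.099) passed without WT fluoxetine male 5 and with the neuroblast markers as a covariate.

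Under lithium the 2 genes that passed were Gjb6 and Gpc5, both lower in HT, among 3.82% of all genes. Gjb6 ran between 1081 and 1403 normalized counts in the 9 HT lithium libraries (median 1246), against 1491 to 1991 in the 8 WT lithium libraries (median 1599). No HT library reached a WT library. The log2 difference was -0.46 (SE 0.05), a 0.726-fold level (adjusted p = 8.0e-09), and it ranked 15 by p among the 17922 genes. Females and males showed the same direction. HT lithium females had 1119, 1101, 1081 and 1403, and WT lithium females had 1491, 1564, 1736, 1570 and 1517. HT lithium males had 1348, 1243, 1246, 1309 and 1280, and WT lithium males had 1991, 1833 and 1628. In females HT lithium female 4 was well above the other 3, and in males the HT values were close together.

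Gpc5 ran between 939 and 1113 normalized counts in HT lithium libraries (median 977), against 1118 to 1240 in WT lithium libraries (median 1156). Here too the ranges did not meet, although the gap was small, between HT lithium female 4 and WT lithium female 5. The log2 difference was -0.23 (SE 0.04), a 0.852-fold level (adjusted p = 9.1e-05). F3 (-0.21, adjusted p = 0.11) had 8 of 9 HT libraries below every WT library, and Slc1a3 (-0.14, adjusted p = 0.11) had 7 of 9. Without HT lithium female 4, F3 (-0.25, adjusted p = 0.044) and Slc1a3 (-0.17, adjusted p = 0.049) passed as well, which made 4 of 10. Aqp4, the gene that was lower under fluoxetine and in vehicle 1 to 5, differed by -0.06 under lithium, with HT libraries between 2662 and 3335 and WT libraries between 2728 and 3953.

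**Figure D2:**
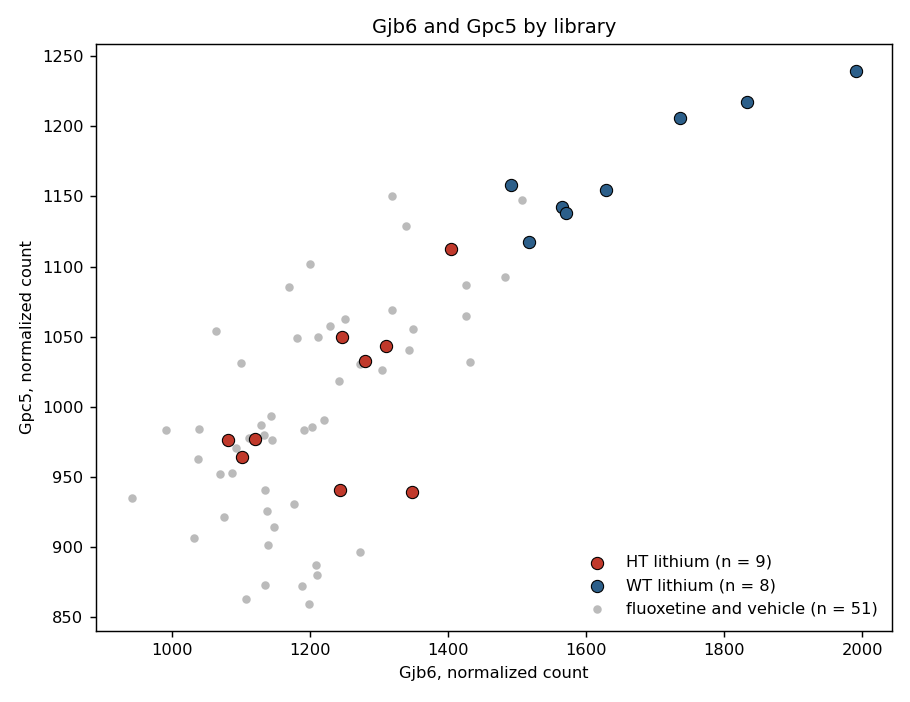
Gjb6 (horizontal axis) against Gpc5 (vertical axis) in normalized counts, 1 point per library; HT lithium libraries are red, WT lithium libraries blue and all 51 others grey. The 8 WT lithium libraries lie from 1491 up for Gjb6 and from 1118 up for Gpc5, and all 9 HT lithium libraries lie below both.

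Dcx stood at a median of 1720 in HT lithium libraries and 1589 in WT lithium libraries. The summed neuroblast level ran between 5123 and 10312 in HT lithium libraries (median 6753) and between 4788 and 11786 in WT lithium libraries (median 6161). With the neuroblast markers as a covariate, chosen after seeing the data, the lithium difference of Gjb6 was -0.46 and that of Gpc5 -0.23. The summed level of the endothelial markers ran between 11149 and 14313 in HT lithium libraries (median 11823). In WT lithium libraries it ran between 12171 and 15130 (median 14011), and 2 of 10 were lower in HT, beside 3.82% of all genes. Summed medians were also lower in HT for meningeal fibroblast (21465 against 25577), mural (8310 against 9162), oligodendrocyte precursor (14243 against 15301) and microglial markers (12419 against 13301). So were the medians of excitatory neuron (181574 against 190848) and myelinating oligodendrocyte markers (180996 against 182702), with inhibitory neuron markers nearly equal (28290 against 28293). Those of striatal neuron, neuroblast, choroid plexus and ependymal markers were higher in HT. The part of the neuroblast, endothelial and other markers in the lithium result was not tested.

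The promoter sequences of the genes behind these differences are printed to show what each start region holds, with Gjb6 and Gpc5 as the pair that was lower in HT under lithium and Gja1, Slc1a3 and F3 as those that were lower in HT in vehicle 1 to 5 but did not pass under lithium. Aqp4 and Sox9 did the same and had no matched promoter. Each is the 250 bases before the RefSeq start on GRCm38.p6, from the gene's own strand, 5′ to 3′. Promoters were taken for 8 of the 10 genes. The windows are chr14:57133612-57133861 (minus strand) for Gjb6, chr14:115091965-115092214 (plus strand) for Gpc5, chr10:56377050-56377299 (plus strand) for Gja1, chr15:8710808-8711057 (minus strand) for Slc1a3 and chr3:121723287-121723536 (plus strand) for F3. Capitals mark any match, on either strand, to TGANTCA (AP-1), ACAATG (Sox core), TTGGC (nuclear factor I), GGGCGG (GC box) or CCAAT.
Gjb6: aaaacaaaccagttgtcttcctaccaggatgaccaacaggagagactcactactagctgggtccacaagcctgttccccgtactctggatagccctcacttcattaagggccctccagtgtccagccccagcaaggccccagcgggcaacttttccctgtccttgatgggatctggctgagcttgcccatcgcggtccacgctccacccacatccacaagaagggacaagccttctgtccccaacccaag
Gpc5: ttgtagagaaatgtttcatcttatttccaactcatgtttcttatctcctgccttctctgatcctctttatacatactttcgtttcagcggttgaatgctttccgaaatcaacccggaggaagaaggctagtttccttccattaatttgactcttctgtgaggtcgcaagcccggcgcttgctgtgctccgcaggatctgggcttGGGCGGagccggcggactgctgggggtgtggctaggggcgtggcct
Gja1: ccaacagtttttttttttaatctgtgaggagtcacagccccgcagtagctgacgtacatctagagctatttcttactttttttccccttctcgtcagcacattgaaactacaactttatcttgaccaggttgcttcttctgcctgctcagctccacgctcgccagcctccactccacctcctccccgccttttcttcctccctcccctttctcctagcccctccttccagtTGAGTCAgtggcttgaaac
Slc1a3: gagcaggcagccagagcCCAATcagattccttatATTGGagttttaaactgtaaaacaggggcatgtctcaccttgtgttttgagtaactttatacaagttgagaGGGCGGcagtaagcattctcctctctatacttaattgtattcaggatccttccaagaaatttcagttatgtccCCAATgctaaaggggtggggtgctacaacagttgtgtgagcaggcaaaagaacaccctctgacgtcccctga
F3: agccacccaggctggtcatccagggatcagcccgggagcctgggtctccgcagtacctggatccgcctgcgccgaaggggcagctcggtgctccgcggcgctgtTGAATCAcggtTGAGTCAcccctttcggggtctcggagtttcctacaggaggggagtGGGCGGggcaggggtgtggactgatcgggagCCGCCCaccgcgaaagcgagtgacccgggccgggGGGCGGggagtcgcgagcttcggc
Gjb6 held none of the 5 motifs and Gpc5 held 1 GC box, at -46 to -41 from the start. Gja1 held 1 AP-1 match, at -19 to -13 from its start. Slc1a3 held 1 GC box and 3 CCAAT matches and no AP-1 match. F3 held 2 AP-1 matches and 3 GC boxes. The AP-1 letters were added to the search after the sequences had been read, and the matches did not overlap each other. Over all 32851 promoters of this length, 6.75% held TGANTCA, 10.7% ACAATG, 41.5% TTGGC, 32.7% GGGCGG and 33.8% CCAAT. GC content was 70.0% for F3, 56.8% for Gjb6, 51.2% for Gpc5, 50% for Gja1 and 44.8% for Slc1a3, against a median of 52.4% over all promoters.

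When the HT minus WT effects of the 4 arms were averaged with equal weight, 6 of the 10 genes were lower in HT and none higher, beside 9.37% of all genes in either direction. The largest was Aqp4 at -0.20 (SE 0.04, adjusted p = 9.9e-05), followed by Gjb6 at -0.18 (adjusted p = 2.3e-06), F3 at -0.16 (adjusted p = 3.1e-03), Slc1a3 at -0.13 (adjusted p = 2.4e-04), Sox9 at -0.13 (adjusted p = 0.027) and Gpc5 at -0.12 (adjusted p = 2.0e-05). The means cover unlike arms, and include vehicle 1 to 5 with its split of library sets. The Aqp4 difference was -0.37, -0.08, -0.30 and -0.06 in vehicle 1 to 5, vehicle 6 to 8, fluoxetine and lithium, and the Gjb6 difference was -0.05, -0.15, -0.04 and -0.46 in the same arms. Of 10 oligodendrocyte precursor markers 5 were lower in HT in the same mean and none higher (median -0.12, as for the 10 genes), and of 9 mural markers 4 were lower. Of 10 endothelial markers 2 were lower. Their part in the result was not tested. Sox9 did not pass without HT vehicle female 7 or without WT vehicle male 6 (highest adjusted p = 0.085).

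**Figure D3:**
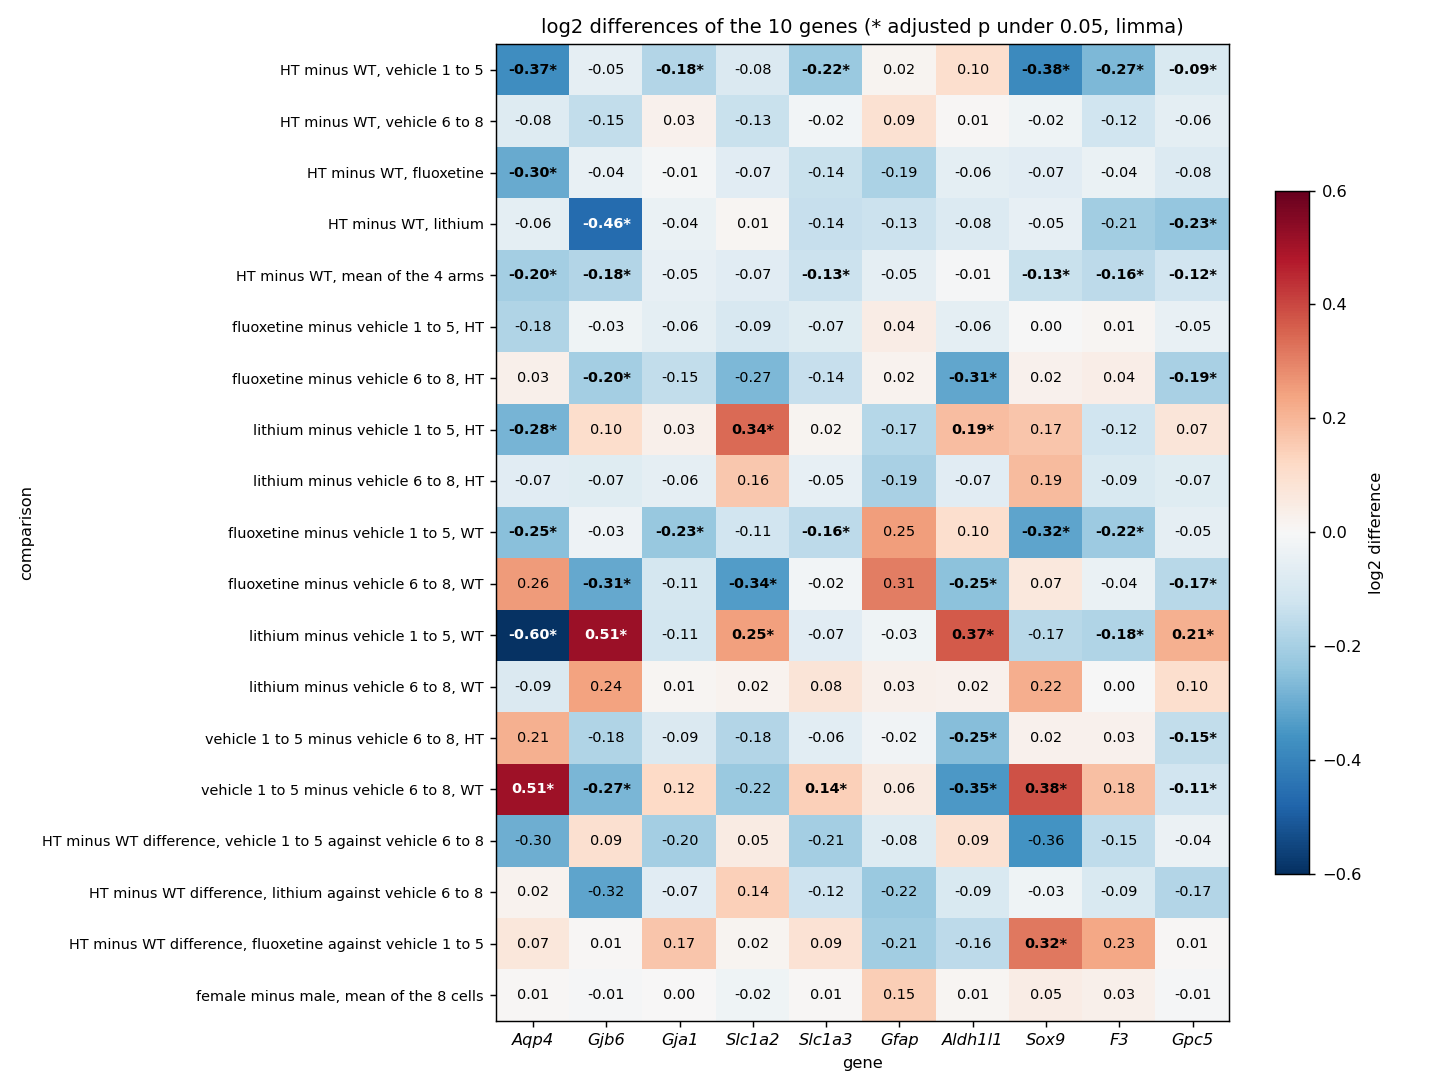
log2 differences of the 10 genes (columns) in the 19 comparisons (rows), in red where the first-named group was higher and blue where it was lower; an asterisk marks an adjusted p under 0.05 by limma. The largest values are -0.60 for Aqp4 and 0.51 for Gjb6 in lithium minus vehicle 1 to 5 of WT.

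Vehicle libraries of 1 genotype differed by title range, and the astrocyte genes moved both ways. In WT, 6 of the 10 passed for vehicle 1 to 5 minus vehicle 6 to 8, beside 41.4% of all genes. Aqp4, Sox9 and Slc1a3 were higher in vehicle 1 to 5, and Gjb6, Aldh1l1 and Gpc5 were lower. Aqp4 had a median of 4781 normalized counts in WT vehicle 1 to 5 libraries (3995 to 5676) and 3300 in WT vehicle 6 to 8 libraries (2968 to 4017), where only WT vehicle male 7 of vehicle 6 to 8 reached the lowest library of vehicle 1 to 5. The Aqp4 difference was 0.51 (SE 0.08, adjusted p = 3.4e-06). Sox9 ran between 675 and 831 in vehicle 1 to 5 and between 507 and 672 in vehicle 6 to 8 with no overlap (0.38, SE 0.09, adjusted p = 4.4e-04).

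Aldh1l1 went the other way in both genotypes. It ran between 1245 and 1887 in WT vehicle 1 to 5 libraries and between 1924 and 2091 in WT vehicle 6 to 8 libraries, without overlap (-0.35, SE 0.07, adjusted p = 9.9e-05). In HT it ran between 1372 and 1921 in vehicle 1 to 5 and between 1942 and 2140 in vehicle 6 to 8, again without overlap (-0.25, SE 0.07, adjusted p = 0.018). Gjb6 was lower in WT vehicle 1 to 5 (-0.27, adjusted p = 2.7e-04). Slc1a3 and Gpc5 kept their WT calls in 8 of 15 fits that left out 1 library, each. In HT, 2 of the 10 passed, Aldh1l1 and Gpc5 (-0.15, adjusted p = 0.027), beside 4.41% of all genes, and Aqp4 differed by 0.21 (adjusted p = 0.098). Leaving out HT vehicle female 7 or HT vehicle male 6 took the HT count to 0, and the Gpc5 call in HT was kept in 10 of 16 such fits.

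Several marker lists had calls for the same split in WT, where 41.4% of all genes passed. All 10 olfactory bulb and neuroblast markers were higher in vehicle 1 to 5 (median log2 difference 2.04), and 8 of 10 myelinating oligodendrocyte, 8 of 10 striatal neuron and 6 of 10 oligodendrocyte precursor markers were lower. The summed neuroblast level ran between 7692 and 42450 in WT vehicle 1 to 5 libraries (median 16904) and between 5208 and 14795 in WT vehicle 6 to 8 libraries (median 5386). With the neuroblast markers as a covariate Aqp4, Sox9, Gjb6 and Aldh1l1 still passed, Slc1a3 and Gpc5 did not, and Gfap became lower in vehicle 1 to 5. The part of these markers and of the library sets in the result was not tested.

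The 2 drugs were set against each vehicle arm of their own genotype. In these comparisons the drug contrasts of 1 genotype share vehicle libraries, and the 2 drugs share them too. Lithium in WT differed most by the vehicle arm used. Against vehicle 1 to 5, 6 of 10 passed beside 51.8% of all genes: Gjb6 (0.51, SE 0.05, adjusted p = 9.6e-12), Aldh1l1 (0.37), Slc1a2 (0.25) and Gpc5 (0.21) rose, while Aqp4 (-0.60, SE 0.07, adjusted p = 1.6e-09) and F3 (-0.18) fell. Aqp4 ran between 2728 and 3953 in WT lithium libraries and between 3995 and 5676 in WT vehicle 1 to 5 libraries, and Gjb6 between 1491 and 1991 in lithium and 1039 and 1318 in vehicle 1 to 5, both without overlap. F3 lost its call in 9 of 18 fits that left out 1 library (highest adjusted p = 0.13). In the same comparison 7 of 10 neuroblast markers fell (median -1.76) and 8 of 10 myelinating oligodendrocyte markers rose, and their part in the result was not tested.

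Against WT vehicle 6 to 8, 0 of 10 passed for lithium, beside 0.485% of all genes. At an unadjusted p under 0.05 there were 3 of 10, beside 2055 of the 17922 genes. By edgeR on the recovered reads 1 of the 10 passed, Gjb6, beside 94 of all genes. In limma Gjb6 stood at 0.24 (SE 0.06, adjusted p = 0.060), with 1491 to 1991 normalized counts in WT lithium libraries and 1318 to 1506 in WT vehicle 6 to 8 libraries. It passed without WT lithium male 3 (0.28, adjusted p = 0.019). Aqp4, with the largest drop against vehicle 1 to 5, differed by -0.09 against vehicle 6 to 8.

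In HT, lithium against vehicle 1 to 5 gave 3 of 10, beside 12.2% of all genes: Slc1a2 rose (0.34, SE 0.08, adjusted p = 3.2e-03), Aldh1l1 rose (0.19, adjusted p = 0.029) and Aqp4 fell (-0.28, SE 0.07, adjusted p = 5.6e-03). Slc1a2 ran between 86183 and 113050 in HT lithium libraries and between 65134 and 102588 in HT vehicle 1 to 5 libraries. Without HT vehicle males 1 and 2 the Aldh1l1 difference was 0.18 (adjusted p = 0.055), and its call was kept in 14 of 19 fits that left out 1 library. Gjb6, 0.51 higher under lithium in WT, differed by 0.10 in HT with no call. Both are against vehicle 1 to 5, whose WT and HT libraries lie in different library sets except HT vehicle males 1 and 2. The genotype difference of that contrast was not tested. Against HT vehicle 6 to 8, 0 of 10 passed, beside 0.100% of all genes. At an unadjusted p under 0.05 there was 1 of 10 (Sox9, 0.19), beside 1829 of the 17922 genes. By edgeR none of the 10 passed, beside 23 of all genes. Whether the lithium effect differed by genotype was tested against vehicle 6 to 8, where 0 of 10 passed beside 0.00% of all genes. Gjb6 had the smallest p of the 10, at -0.32 (SE 0.09, unadjusted p = 5.2e-04, adjusted p = 0.44). An unadjusted p under 0.05 was reached by 2 of the 10, beside 1480 of the 17922 genes, and edgeR passed 0 of all genes.

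Fluoxetine in WT also depended on the vehicle arm. Against vehicle 1 to 5, 5 of 10 fell beside 29.0% of all genes that passed: Sox9 (-0.32, SE 0.07, adjusted p = 4.9e-04), Aqp4 (-0.25), Gja1 (-0.23, SE 0.05, adjusted p = 8.2e-05), F3 (-0.22) and Slc1a3 (-0.16). In that comparison 4 of 10 excitatory neuron markers fell and 1 rose (median -0.20), and 5 of 9 mural, 4 of 8 meningeal fibroblast and 3 of 6 ependymal markers fell, and their part was not tested. Against vehicle 6 to 8 a different 4 of 10 fell, beside 5.06% of all genes: Gjb6 (-0.31, SE 0.06, adjusted p = 1.4e-03), Slc1a2 (-0.34, adjusted p = 0.030), Aldh1l1 (-0.25, adjusted p = 0.033) and Gpc5 (-0.17, adjusted p = 0.020). None of the 5 genes of the first comparison is among these 4. Aqp4 was 0.26 above vehicle 6 to 8 without passing (adjusted p = 0.059). In that second comparison Slc1a2 and Aldh1l1 kept their calls in 7 of 15 fits that left out 1 library, and Gjb6 in all 15. Gpc5 lost its call without WT vehicle male 6 or WT vehicle male 7, and the count was 1 without WT vehicle male 6. Of 10 endothelial markers 5 fell there, of 10 oligodendrocyte precursor markers 5 fell and 1 rose, and of 10 myelinating oligodendrocyte markers 3 fell. Their part in the result was not tested.

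In HT, fluoxetine against vehicle 1 to 5 gave 0 of 10, beside 0.541% of all genes. At an unadjusted p under 0.05 there was 1 of 10 (Aqp4, -0.18, adjusted p = 0.19), beside 2531 of the 17922 genes. By edgeR none of the 10 passed, beside 109 of all genes. Without HT vehicle males 1 and 2, when both sides lie in 1 library set, this comparison also gave 0 of 10 by limma, with Aqp4 at -0.13. Against vehicle 6 to 8, 3 of 10 fell, beside 6.58% of all genes. Gpc5 ran between 859 and 991 normalized counts in HT fluoxetine libraries and between 1031 and 1087 in HT vehicle 6 to 8 libraries with no overlap (-0.19, SE 0.04, adjusted p = 2.3e-03). Aldh1l1 (-0.31, SE 0.07, adjusted p = 2.4e-03) and Gjb6 (-0.20, adjusted p = 0.019) fell too. The Gjb6 call was kept in 12 of 16 fits that left out 1 library. The fluoxetine effect differed by genotype for 1 of 10 genes against vehicle 1 to 5, Sox9 (0.32, SE 0.10, adjusted p = 0.043), beside 7.04% of all genes. It was near 0 in HT and -0.32 in WT, where fluoxetine and vehicle 1 to 5 lie in different library sets, and the call was kept in 18 of 40 fits that left out 1 library and was absent by edgeR.

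The 9 lists around these genes gave the following counts for HT minus WT in vehicle 1 to 5, where 25.9% of all genes passed. The endfoot list lay above that share, and the other 8 counts lay near or below it. Of 16 astrocyte transcription factors 5 fell and none rose, led by Nfib (-0.33), Hes1 (-0.38), Sox8 (-0.26) and Nfia (-0.22), which take part in making astrocytes. Of 13 perivascular endfoot water and potassium genes 6 fell and 2 rose, among them the potassium channels Kcnj16 (-0.31) and Kcnj10 (-0.19), the bicarbonate transporter Slc4a4 (-0.35) and dystrophin Dmd (-0.18). Of 40 other astrocyte genes 8 fell and 2 rose. Of 12 glutamate uptake and recycling genes 2 fell (Glud1 -0.07, Slc7a11 -0.19) and 1 rose (Got1 0.17). Among 10 connexins and pannexins Gjb2 fell (-0.26). Of 13 glypicans and astrocyte synapse factors Sparcl1 and Sparc fell and the glypican Gpc4 rose (0.49, adjusted p = 6.3e-10), opposite to Gpc5. Of 31 reactive astrocyte genes 3 fell and 2 rose, of 11 immature astrocyte and radial glia genes 2 fell, and of 7 coagulation genes Serpine2 fell (-0.33). Median differences ran from -0.21 for the immature astrocyte list and -0.19 for the transcription factors to 0.02 for the reactive list.

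Under lithium, where 3.82% of all genes passed, the same lists had few calls between genotypes. Of 40 other astrocyte genes 7 were lower in HT and none higher, with Sdc4, a syndecan (-0.37, adjusted p = 2.8e-04), Htra1 (-0.28, adjusted p = 3.2e-04), Aldoc, an aldolase of astrocytes (-0.24), and Glul, glutamine synthetase (-0.17), as the 4 with the smallest p. Of the glutamate genes only Glul passed and of the reactive genes only Fkbp5 (-0.37). None passed among the other connexins, the endfoot genes, the transcription factors, the immature astrocyte genes, the glypicans or the coagulation genes. Under fluoxetine 5 of 40 other astrocyte genes and 3 of 13 endfoot genes were lower in HT, beside 2.66% of all genes, with Kcnj10 at -0.23 (adjusted p = 2.5e-03) and Slc4a4 at -0.34 beside Aqp4. The reactive list gave Serpina3n (0.44) and Serping1 (0.36) higher and Stat3 (-0.25) lower, while Gfap, the textbook reactive gene, did not pass (-0.19).

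The drug contrasts of the lists again depended on the vehicle arm. For fluoxetine minus vehicle 6 to 8 in HT, 18 of 40 other astrocyte genes fell and none rose, beside 6.58% of all genes (median -0.16, against 0.00 over all genes), among them the receptor Fgfr3 (-0.42), the amino acid transporter Slc7a10 (-0.34) and Ndrg2 (-0.30). Of 13 endfoot genes 6 fell and 1 rose. In the same comparison 7 of 10 endothelial, 5 of 9 mural and 8 of 10 oligodendrocyte precursor markers fell as well. Their part in the result was not tested. In WT the same comparison gave 8 of 40, all lower, beside 5.06% of all genes, led by Sdc4 (-0.48) and Fgfr3 (-0.42). For lithium minus vehicle 1 to 5 in WT, 19 of 40 rose and 4 fell, close to the 51.8% of all genes that passed, led by Fgfr3 (0.71), Sdc4 (0.67), Htra1 (0.50) and Aldoc (0.49). In HT that comparison gave 10 of 40, all higher, beside 12.2% of all genes.

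Within the 16 groups the 10 genes did not vary as 1 block. Deviations from the group means were correlated for all 45 pairs over 68 libraries, and 40 pairs were positive, with a median Pearson's r of 0.34. Of the 45, 30 had a Benjamini-Hochberg adjusted p under 0.05 in a two-sided permutation test within groups (100000 resamples). Aqp4 and Gja1 were closest (r = 0.80, rho = 0.75, adjusted permutation p = 7.5e-05 for each). Without the 2 libraries farthest from the Aqp4 median r was 0.76. Gja1 and Slc1a3 followed (r = 0.74, rho = 0.69, adjusted permutation p = 7.5e-05 for each), with r = 0.71 without the 2 farthest. Slc1a2 and Gfap ran opposite to each other (r = -0.55, rho = -0.58, adjusted permutation p = 2.7e-04 and 1.3e-04), with r = -0.54 without the 2 farthest. Gjb6 and Gja1, both connexins of astrocytes, were loosely related (r = 0.31, rho = 0.23, adjusted permutation p = 0.038 and 0.12), with r = 0.25 without the 2 farthest.

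Gfap and Slc1a2 also moved with markers of other cells. Over 120 relations between the 10 genes and 12 marker lists, 58 had an adjusted permutation p under 0.05 for r. The mean level of the olfactory bulb and neuroblast markers went with Gfap (r = 0.80, rho = 0.79, adjusted permutation p = 1.1e-04 and 1.2e-04) and against Slc1a2 (r = -0.72, rho = -0.70, adjusted permutation p = 1.1e-04 and 1.2e-04). Without the 2 farthest libraries r was 0.78 for Gfap and -0.71 for Slc1a2. The excitatory neuron markers went against Gfap (r = -0.84, rho = -0.82, adjusted permutation p = 1.1e-04 and 1.2e-04, r = -0.80 without the 2 farthest). Aqp4 also went with the neuroblast markers (r = 0.46, adjusted permutation p = 1.5e-03) and against the excitatory neuron markers (r = -0.42, adjusted permutation p = 3e-03). Aldh1l1 (r = -0.37, adjusted permutation p = 0.023) and Gjb6 (r = -0.36, adjusted permutation p = 0.031) went against the neuroblast markers. Gja1 (r = 0.19) and Slc1a3 (r = 0.21) did not pass with them, and Sox9, F3 and Gpc5 had r between -0.08 and -0.04. All 10 genes had positive r with the endothelial markers, from 0.08 for Gfap to 0.63 for Aldh1l1. The same held for the mural markers, from 0.35 for Slc1a2 to 0.62 for Gja1.

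**Figure D4:**
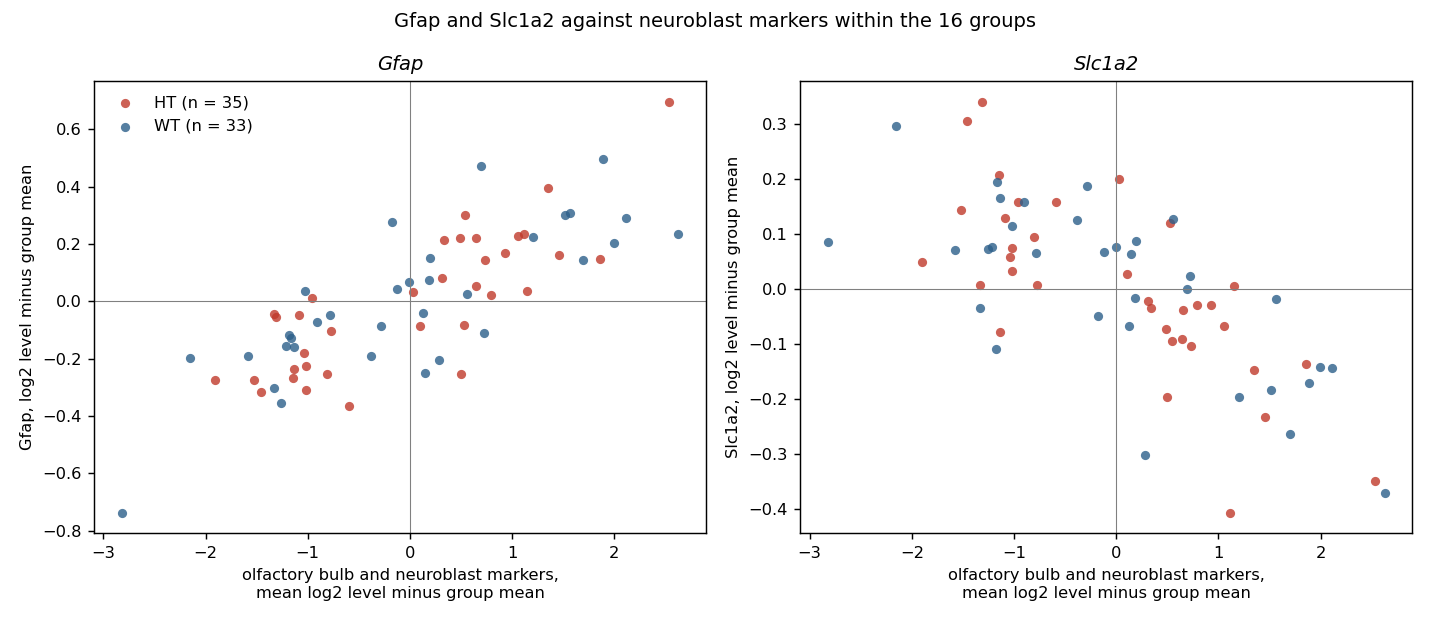
Gfap (left) and Slc1a2 (right) on the vertical axes against the mean log2 level of the olfactory bulb and neuroblast markers on the horizontal axes, all as log2 deviations from the mean of each library's own group, 1 point per library. Gfap climbs with the markers (r = 0.80) and Slc1a2 drops (r = -0.72) in both genotypes.

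Over 13739 genes with a mean of at least 50, those most like the mean of the 10 members across the 68 deviations included Glul (r = 0.82), Zcchc24 (0.81), the endothelial cadherin Cdh5 (0.80) and Wwtr1 (0.80). These points share library and size factor, so the values are a description. Among the members themselves r to that mean was highest for Gja1 (0.85) and Slc1a3 (0.83) and lowest for Gfap (0.29). Nearest to Aqp4 were Timp3 (0.81), Gja1 (0.80) and Elovl5 (0.79), and nearest to Gja1 were Aqp4, Cobll1 (0.79) and Slc7a2 (0.78). Nearest to Gjb6 were Fam107a (0.71), Abcb1a (0.68) and F3 (0.66), and nearest to F3 were mt-Cytb (0.70), Sdc4 (0.68) and Selenop (0.66). Nearest to Slc1a2 were Acsl6 (0.89), Trak2 (0.88) and Rims1 (0.88), and nearest to Slc1a3 were Ptprz1 (0.79), Pabpc1 (0.78) and Nrarp (0.78). Nearest to Gfap were Fgfr1 (0.88), Slc6a9 (0.87) and Rapgef3 (0.87), nearest to Aldh1l1 were Aldoc (0.85), Gpr37l1 (0.81) and Dlg4 (0.81), and nearest to Sox9 were Zfp36l1 (0.79), Nrarp (0.70) and Zfp36l2 (0.64). Nearest to Gpc5 were the microglial gene Tyrobp (0.65), Trim25 (0.65) and the microglial gene Csf1r (0.65).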

How the data were processed

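The authors deposited 1 table of signal values per gene and library, which behave as reads scaled by a size factor of the library. Per the submitters' processing notes the build was GRCm38, and DESeq2 1.19.11, Salmon 0.11.2 and R 3.6.0 are named without their roles. A stranded kit for polyadenylated RNA is named per the labels' protocols. Neither the annotation nor the use of strand in counting is given in the sources used here, so overlapping and antisense genes are uncertain. Every deposited value came out as a whole number of reads within 0.01, and 22356015 to 37534435 reads per library were recovered that way.

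Deposited values were tested with limma 3.58.1 (R 4.3.3) on the log2(value + 1) scale, with trend and robust shrinkage and 16 groups in 1 fit, over 17922 genes with a mean of at least 5. Adding 1 understates the change of low genes. The plan named limma, with edgeR in its place only for a table of raw whole-number counts. An alternative with edgeR 4.0.16 on the recovered reads was added. Symbols and positions came from GENCODE vM21 (18077 IDs matched) and promoters from RefSeq on GRCm38.p6. Correlations used scipy 1.17.1 in Python 3.11.15. Library sets came from clustering pseudogene levels of these data, and fits within them or leaving out HT vehicle males 1 and 2 were chosen after seeing the data. The test code was checked on simulated data. No 2 libraries of a group agreed within sampling noise.

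The members, the lists and the contrasts were chosen with earlier results of these data known. All 10 members are named, of each other list up to 4 members with the smallest p among those that passed, and the genes most like the members. Some genes that this rule would name are not reported here.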

Additional observations from a re-analysis of the deposited data

Results flagged for a closer look

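In groups of 4 or 5 libraries, 1 library lay far from the others in 4 of 110 checks, about as many as chance gives at 1 in 20. Gjb6 had 1403 normalized counts in HT lithium female 4, against 1081 to 1119 in the other HT lithium females. Gpc5 had 1113 in the same library, against 964 to 977. Gfap had 3401 in WT lithium female 5, against 3982 to 4122. Gpc5 had 1129 in WT fluoxetine female 5, against 980 to 1019 in the other WT fluoxetine females.

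The fluoxetine effect on Sox9 differed between HT and WT when set against vehicle 1 to 5, by 0.32 on the log2 scale (adjusted p = 0.043 by limma). In WT that contrast runs across library sets, and edgeR did not call it.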

How the results depend on the processing

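Pooling vehicle 1 to 8 makes both vehicle arms 1 group, so contrasts with either arm become the same contrast. Pooled, HT minus WT gave 4 of 10, where vehicle 1 to 5 had given 6 and vehicle 6 to 8 had given 0. Fluoxetine minus pooled vehicle gave 0 in HT (0 and 3 by arm, in the same order) and 1 in WT (5 and 4). Lithium minus pooled vehicle gave 1 in HT (3 and 0) and 4 in WT (6 and 0). With pooled vehicle the genotype difference of the lithium effect gave 1 and that of the fluoxetine effect 0. Library weights gave 6 for fluoxetine minus vehicle 6 to 8 in HT, 1 for lithium minus vehicle 6 to 8 in WT, 4 for the vehicle arms in HT, 4 for the genotype difference between vehicle arms and 1 for that of lithium. Compared cells alone gave 1 for fluoxetine minus vehicle 6 to 8 in WT, 1 for the vehicle arms in HT and 0 for the genotype difference of fluoxetine. TMM scaling and edgeR gave 1 for lithium minus vehicle 6 to 8 in WT, and edgeR 0 for the genotype difference of fluoxetine. Chosen after seeing the data, the neuroblast covariate gave 2 for HT minus WT under fluoxetine, 1 for fluoxetine and 1 for lithium minus vehicle 6 to 8 in WT and 2 for the genotype difference of fluoxetine. Leaving out HT vehicle males 1 and 2 gave 2 for the genotype differences of vehicle arms and of fluoxetine. For HT minus WT in vehicle 1 to 5, males alone gave 3 (2 lower in HT, and Aldh1l1 higher), females alone 4, and HT males 1 and 2 against the WT males of their library set 0, with Gja1 turned to 0.021 in this last fit. With the neuroblast covariate Gfap turned to 0.25 for lithium minus vehicle 1 to 5 in WT and to -0.32 for vehicle 1 to 5 minus vehicle 6 to 8 in WT. The cause of these moves was not tested, though the fit within a set has 2 HT libraries. Shares of all genes were counted only for edgeR, for each sex alone and within the library set. The other counts of alternative fits therefore have no background beside them.

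Leaving out single libraries, the count ran from 1 to 5 for fluoxetine minus vehicle 6 to 8 in WT, 0 to 2 for the genotype difference of fluoxetine, 1 to 2 for HT minus WT under fluoxetine, 2 to 4 for it under lithium, 0 to 1 for lithium minus vehicle 6 to 8 in WT and 0 to 3 for the vehicle arms in HT. The Gjb6 and Gpc5 differences under lithium passed in every alternative fitted. With the replicate number as a replicate block, HT minus WT in vehicle 1 to 5 gave 5 and lithium minus vehicle 1 to 5 in WT gave 7. Taken over all groups, libraries with the same number did not deviate together at the median (median r -0.03 over 313 pairs, 94 above 0.1). Whether the numbers pair libraries of some groups was not tested. Within 1 genotype, contrasts of vehicle 6 to 8 with another arm had no blocked fit, while genotype differences between arms were fitted that way. Vehicle 6 to 8 has 5 or 6 libraries per genotype, which limits what could be detected there.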
